A study of Oryza sativa with 6 samples.

Results

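In rice seedlings, 85 of 55801 listed loci carried transcripts that were plentiful at the end of the night and almost gone at the end of the day. A locus was taken when its mean over the AM libraries was at least 20 CPM and its smallest AM value was at least 32 times its largest PM value plus 0.1 CPM. CPM is here the count of a locus divided by the count on all loci of that library, times 1000000. The loci were thus chosen by their AM and PM values, so the contrast between the groups is described for them and not tested. All 6 libraries came from the genotype Nipponbare, with no mutant, transgene or chemical treatment named. Seedlings grew at 28 °C on Chu's medium, in days split into 12 h light and 12 h dark. Harvest for the 3 AM libraries was 30 min ahead of lights on, at the end of the night, and for the 3 PM libraries 30 min ahead of lights off, at the end of the day. Nothing states that replicates were separate plants or cultures, so their spread may be technical.

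Whole seedlings were frozen according to the labels, which also name the organ as panicle. Leaf markers (LHCB2, LHCB4, RCA, PRK and GAPB) summed to 49205 to 62816 CPM in AM and 4686 to 6004 CPM in PM. LHCB2 and LHCB4 are themselves among the 85 loci; RCA, PRK and GAPB alone summed to 32014 to 38049 CPM in AM and 4608 to 5953 CPM in PM. The 6 floral organ markers summed to 5.12 to 5.61 CPM in AM and 4.39 to 6.79 CPM in PM. Of these, 1 never exceeded 1 count in a library, while the highest count of any was 279. The 5 root markers summed to 26.7 to 41.3 CPM in AM and 22.1 to 28.3 CPM in PM, with LSI2, a silicon exporter of the root, at 0 counts in all libraries. Counts on loci came to between 13 M and 66.7 M per library. In bulk RNA, fewer cells of a type and less RNA per cell cannot be told apart.

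Plants anticipate dawn through a circadian clock, in which MYB factors such as LHY peak early in the day and repress genes of the evening. Many nuclear genes for photosynthesis respond both to this clock and to light. Their products include the chlorophyll-binding antenna proteins, which collect light for the photosystems, and enzymes that make chlorophyll and carotenoids. Transcripts that are abundant just before dawn can be translated once light returns.

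Names were available for 20 of the 85 loci. The deposited counts give MSU locus identifiers only, and the RefSeq gene table (assembly ASM3414082v1) does not hold them. Names were therefore assigned from a list of published identifiers. RefSeq carries a matching symbol or synonym on the same chromosome for 6 of the 20, namely LHY, CHLH, ZEP, LHCB1a, LHCB1b and LHCB2. The other 14 names rest on the list alone. The remaining 65 loci are described without names or roles. CPM values are not divided by transcript length, so they rank shares of reads and not transcript levels of different genes.

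The rule took 1.41% of the 6040 loci with a mean AM value of at least 20 CPM. Smallest AM values exceeded the largest PM value plus 0.1 CPM at 1446 of these loci, exceeded it 4-fold or more at 385 and 16-fold or more at 142. The ratio of smallest AM to largest PM value ran from 32.6 to 408 among the 85, with a median of 86.4. It was at least 64 at 53 loci. The 3 loci just inside the threshold had ratios of 32.6, 32.96 and 33.01, and the 3 just outside had 31.5, 31.3 and 30.5. The ratios ran on across the threshold without a gap.

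**Figure D1:**
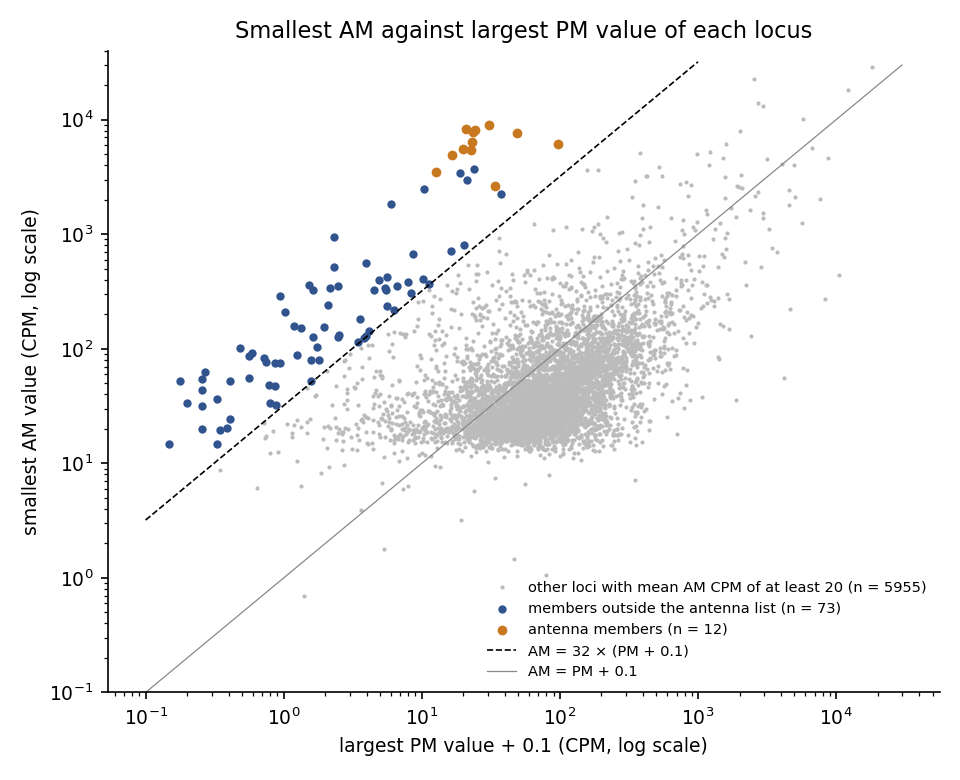
Smallest AM value against largest PM value plus 0.1, both in CPM on log scales, for the 6040 loci with a mean AM value of at least 20 CPM. The dashed line marks the 32-fold threshold; the 12 antenna genes sit among the highest AM values of the set, and the other 73 loci reach down to AM values near the minimum.

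Together the 85 loci took 11.6%, 15.0358% and 11.4% of all counts in AM replicates 1, 2 and 3. In PM replicates 1, 2 and 3 they took 0.0475%, 0.0607% and 0.0427%. The means were 12.7% ± 2.05 in AM and 0.0503% ± 0.00932 in PM (SD, n = 3). The 12 antenna genes held most of this, with 9.11% ± 1.99 of AM counts and 0.0256% ± 0.00677 of PM counts (SD, n = 3). The 65 unnamed loci took 2.06% ± 0.0642 of AM counts and 0.0163% ± 0.00176 of PM counts (SD, n = 3). Mean AM values ran from 20.6 to 10664.5 CPM with a median of 236 CPM, and those of the antenna genes from 4087 to 10664.5 CPM. They stayed under 100 CPM at 26 loci, of which 1 was named, so the names cover mostly loci with many reads.

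**Figure D2:**
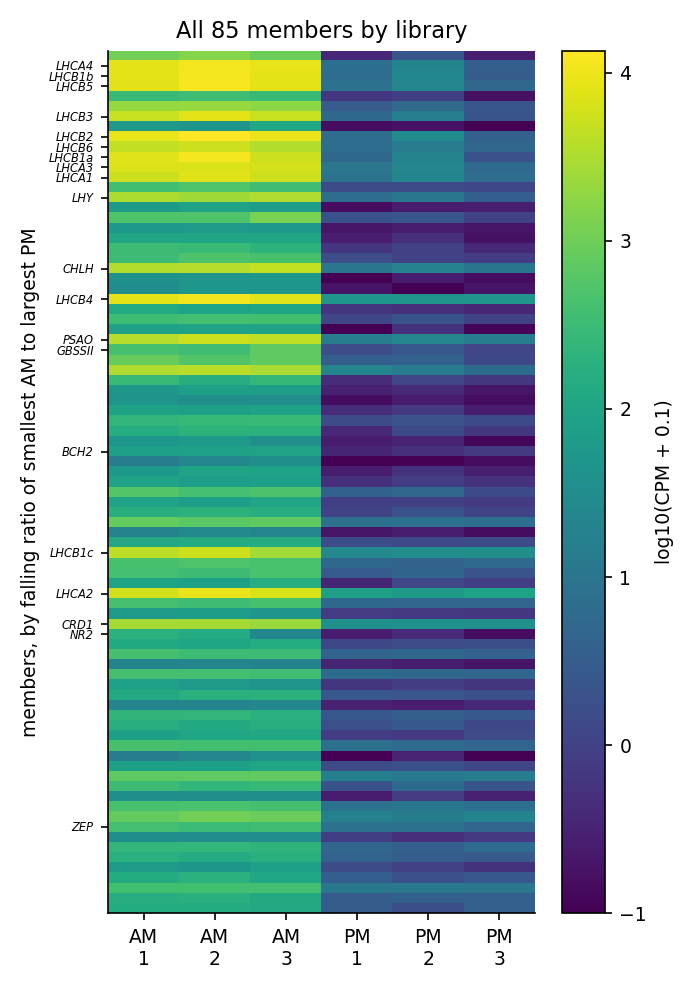
Values of all 85 loci in the 6 libraries as log10(CPM + 0.1), ordered by falling ratio of smallest AM to largest PM value, with named genes marked. Within each row the 3 AM columns are brighter than the 3 PM columns, although the PM values of LHCA2 exceed the AM values of some rows with few reads, and antenna genes fill much of the upper end.

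Traces remained in PM at every one of the loci. Each had at least 2 counts over the PM libraries together, with a median of 110 and a highest sum of 6454. The sum was 10 counts or fewer at 12 loci. At 6 loci at least 1 PM library had 0 counts, and none had 0 counts in all 3. A count of 0 allows up to 0.147, 0.231 and 0.072 CPM in PM replicates 1, 2 and 3, as 3 counts in a library, which covers counting error only. The largest PM value was under 1 CPM at 28 loci, while the mean PM value was at least 10 CPM at 16. Whether some of these counts come from RNA or reads of AM samples was not tested.

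LHY (LOC_Os08g06110), the MYB transcription factor of the morning arm of the clock, was the single clock gene of 13 in the set. It stood at 3098, 2466 and 3388 CPM in AM replicates 1, 2 and 3 and at 6.85, 10.2 and 3.36 CPM in PM replicates 1, 2 and 3. All AM values were far above all PM values, and the means of 2984 ± 472 and 6.82 ± 3.44 CPM (SD, n = 3) differed 438-fold. Its smallest AM value was 239 times its largest PM value plus 0.1, which placed it 15th of the 85 by this ratio.

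Antenna genes were the largest named group, with 12 of the 14 listed genes in the set. The photosystem II antenna consists of trimers of LHCB1, LHCB2 and LHCB3 and the single minor proteins LHCB4, LHCB5 and LHCB6, which link the trimers to the core. All 8 listed LHCB genes were in the set. LHCB2 (LOC_Os03g39610) was at 8907, 13541 and 9546 CPM in AM and at 6.85, 30.7 and 3.72 CPM in PM, in the order of replicates 1 to 3 here and below. LHCB1b (LOC_Os09g17740) was at 8443, 11332 and 8194 CPM in AM and at 6.61, 24.3 and 3.22 CPM in PM. In both genes AM replicate 2 was the highest AM library and PM replicate 2 the highest PM library. The means of LHCB2 differed 775-fold and those of LHCB1b 819-fold, or 2017-fold and 1898-fold without PM replicate 2.

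LHCB1a (LOC_Os01g41710) followed the same order among libraries, with 7451, 11504 and 5504 CPM in AM and 4.99, 19.7 and 1.90 CPM in PM. A further copy, called LHCB1c here (LOC_Os01g52240), showed another order among the PM libraries. It was at 4089, 5553 and 2620 CPM in AM but at 25.4, 32.2 and 34.0 CPM in PM. Its means differed 134-fold, against 920-fold for LHCB1a, or 138-fold and 2367-fold without PM replicate 2. LHCB1 copies resemble one another and reads that aligned to more than 1 place were not counted, so the split of reads between these copies is uncertain. Alignments to more than 1 place made up 46.9%, 56.1% and 45.1% of all records in AM and 44.9%, 47.9% and 39.1% in PM.

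LHCB3 (LOC_Os07g37550) was at 4941, 8170 and 5007 CPM in AM and at 5.29, 16.3 and 2.09 CPM in PM. Among the minor antenna genes, LHCB5 (LOC_Os11g13890) was at 7818, 11796 and 8354 CPM in AM and at 8.08, 23.2 and 4.73 CPM in PM. LHCB6 (LOC_Os04g38410) was at 4521, 5575 and 3524 CPM in AM and at 7.05, 12.5 and 4.75 CPM in PM. Their means differed 765-fold, 776-fold and 560-fold, or 1638-fold, 1456-fold and 770-fold without PM replicate 2. LHCB4 (LOC_Os07g37240), which encodes the minor protein CP29, kept more of its transcript at dusk, with 8284, 11226 and 7687 CPM in AM and 48.5, 47.8 and 47.0 CPM in PM. Its means differed 190-fold, and its PM values varied least of all antenna genes, at 47.7 ± 0.751 CPM (SD, n = 3).

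The photosystem I antenna is built from LHCA1 to LHCA4, and all 4 genes were in the set. LHCA4 (LOC_Os08g33820) was at 8216, 11061 and 8954 CPM in AM and at 7.29, 20.9 and 3.31 CPM in PM, a ratio of smallest AM to largest PM value of 391, the highest of all named loci. LHCA1 (LOC_Os06g21590) was at 5465, 7667 and 5589 CPM in AM and at 8.76, 22.8 and 6.63 CPM in PM. Means differed 895-fold for LHCA4 and 491-fold for LHCA1, or 1775-fold and 811-fold without PM replicate 2. LHCA3 (LOC_Os02g10390) was at 7150.48, 6960.26 and 6386 CPM in AM and at 10.8, 23.2 and 5.59 CPM in PM. LHCA2 (LOC_Os07g38960) had the highest PM values of all 85 loci, at 81.5, 60.4 and 96.1 CPM, beside 6133, 9523 and 6488 CPM in AM. Its ratio of 63.8 was the lowest of the antenna genes in the set. LHCA5 and LHCA6, the listed antenna genes outside the set, are treated with the pathway lists.

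PSAO (LOC_Os04g33830), a small photosystem I subunit, was the single gene of 20 in the list for photosystems and electron transport that met the rule. It was at 3693, 5381 and 4355 CPM in AM and at 14.7, 23.9 and 14.6 CPM in PM. The groups were far apart, and the means of 4476 ± 851 and 17.8 ± 5.34 CPM (SD, n = 3) differed 252-fold.

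**Figure D3:**
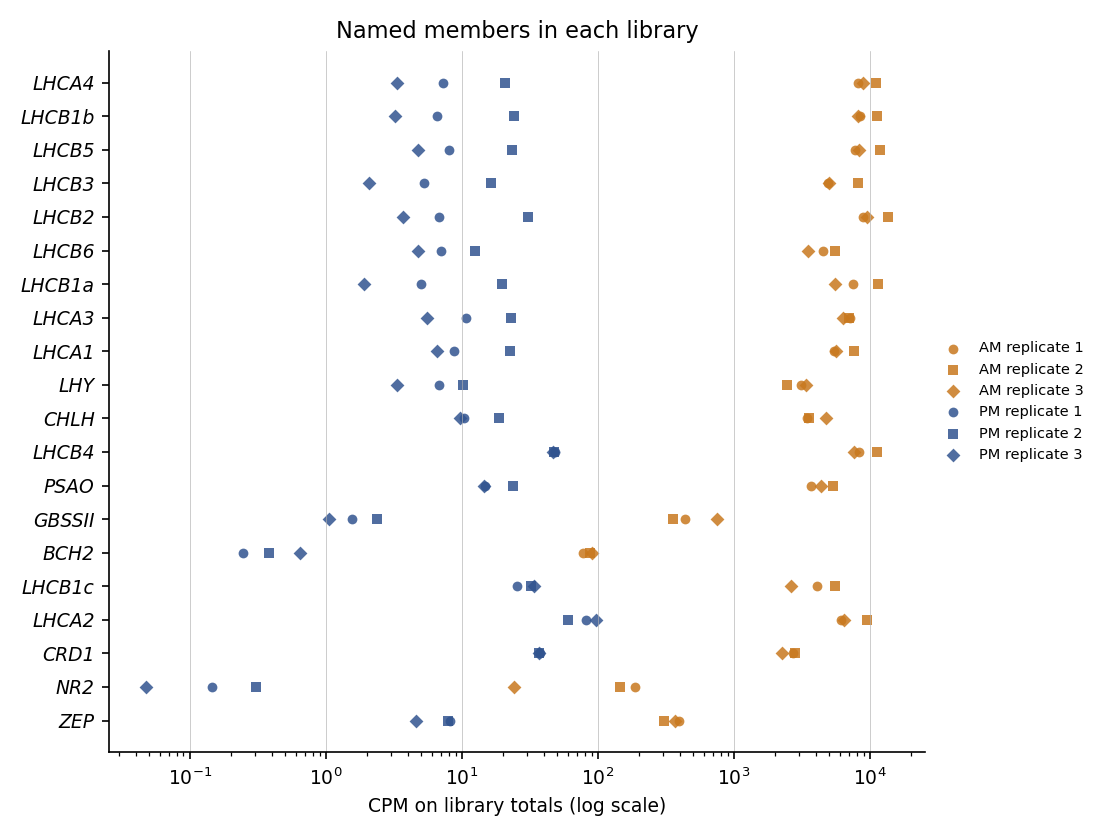
CPM of the 20 named genes in each library on a log scale, ordered by the ratio of smallest AM to largest PM value. AM points sit to the right of all PM points in every row; the PM points of LHCB4 and CRD1 nearly coincide, while those of LHCB1a and LHCB2 spread with PM replicate 2 the highest.

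Both chlorophyll synthesis genes in the set act in the branch that commits porphyrins to chlorophyll. CHLH (LOC_Os03g20700), the subunit of magnesium chelatase that binds the porphyrin, was at 3431, 3583 and 4731 CPM in AM and at 10.4, 18.7 and 9.67 CPM in PM. CRD1 (LOC_Os01g17170), part of the cyclase that closes the fifth ring of chlorophyll, was at 2740.04, 2798 and 2245 CPM in AM and at 37.5, 36.8 and 37.0 CPM in PM. CHLH means differed 303-fold and CRD1 means 70.0-fold. The other magnesium chelatase subunits were far from the rule, with ratios of 1.12 for CHLI (LOC_Os03g36540) and 0.17 for CHLD (LOC_Os03g59640). A ratio under 1 means that the groups overlapped or that PM was higher. At CHLD all PM values were higher, with 93.3, 68.9 and 98.8 CPM in AM and 374, 404 and 289 CPM in PM.

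Carotenoids protect the photosystems and serve as precursors of abscisic acid. BCH2 (LOC_Os04g48880), a beta-carotene hydroxylase, was at 77.3, 87.6 and 90.0 CPM in AM and at 0.245, 0.385 and 0.648 CPM in PM, or 5, 5 and 27 counts. ZEP (LOC_Os04g37619), the zeaxanthin epoxidase that acts on the hydroxylase's product, was at 394, 308 and 369 CPM in AM and at 8.22, 7.93 and 4.63 CPM in PM. Means differed 200-fold for BCH2 and 51.6-fold for ZEP, which had the lowest ratio of the named genes at 37.0. On the TMM scale the log2 difference of BCH2 was 8.34, and 8.99 without PM replicate 3.

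One gene each came from nitrogen and starch metabolism. NR2 (LOC_Os02g53130), a nitrate reductase, was at 188, 145 and 24.3 CPM in AM and at 0.147, 0.308 and 0.048 CPM in PM, the latter from 3, 4 and 2 counts. AM replicate 3 lay 7.74-fold below AM replicate 1, the widest range within AM of all 85 loci. GBSSII (LOC_Os07g22930), which makes amylose in leaf starch granules, was at 437, 357 and 748 CPM in AM and at 1.57, 2.39 and 1.06 CPM in PM. Here AM replicate 3 was the highest, and the means differed 308-fold.

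Among the 65 loci without a name, ratios ran from 32.6 to 408 with a median of 78.0, and mean AM values from 20.6 to 3399 CPM. LOC_Os03g56930 had the highest ratio of all 85 loci, at 408. It stood at 1072, 1559 and 952 CPM in AM and at 0.294, 2.23 and 0.168 CPM in PM, the latter from 6, 29 and 7 counts. LOC_Os04g58710 took the most reads of the unnamed loci, with 3285, 3939 and 2972 CPM in AM and 21.3, 12.2 and 6.55 CPM in PM.

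A single pair of set members was adjacent in the order of identifiers, and it is named here after its values were seen. LOC_Os03g14910 had 326, 1555 and 1313 counts in AM and 0, 0 and 2 in PM, and LOC_Os03g14915 had 1330, 3473 and 4039 counts in AM and 1, 1 and 0 in PM. Both were highest in AM replicate 3, at 36.4 and 112 CPM. Whether the pair shares sequence or overlaps is not known from the identifiers, and the strand setting of the counting is not given in the sources used here. The other 83 loci were scattered over all 12 chromosomes named in the identifiers, with 13 on chromosome 1 and 3 each on chromosomes 5 and 6. As a share of loci with a mean AM value of at least 20 CPM, this was lowest on chromosome 5, at 0.595%, and highest on chromosome 4, at 2.31%.

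Loci next to the set give a look at genes the rule did not choose. PM and AM were compared at all 20548 loci that passed a filter on low counts, with the edgeR quasi-likelihood test after TMM scaling and Benjamini-Hochberg adjustment at 0.05. In that comparison 28% of loci were higher in AM and 28% lower (5745 and 5748), or 2764 and 11200 with library totals alone, where the median locus lay 0.84 log2 units lower in AM. All 85 chosen loci passed the filter. AM values lay above all PM values without overlap at 14.8% of the tested loci on library totals, and at all of the 85 by their rule. Of 168 flanking loci outside the set, 99 were tested, of which 44 (44.4%) were higher in AM and 21 (21.2%) lower, with a median log2 difference of AM over PM of 0.34 against 0.01 for all tested loci. PSAN (LOC_Os12g08770), a photosystem I subunit directly beside a set member, was among them. Whether reads of overlapping neighbours add to these counts was not tested.

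The pathway lists show where the set ends within each pathway. Their genes were compared by the same edgeR fit, so the 28% in each direction and the median of 0.01 are the background. For counts with library totals alone, the background is 2764 loci higher in AM and 11200 lower, with a median of −0.84. The loci chosen by the rule had to be higher in AM, so the counts and medians that follow leave them out. In the antenna list this leaves 2 of 14 genes. LHCA5 (LOC_Os02g52650), a minor photosystem I antenna gene, was higher in AM by 2.06 (SE 0.16, edgeR adjusted p = 1.47e-05). LHCA6 (LOC_Os09g26810) was lower, with a log2 difference of −1.08 (SE 0.22, edgeR adjusted p = 0.00336). The set thus holds every listed antenna gene except these 2.

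In the list for photosystems and electron transport, 18 of the 19 genes other than PSAO were higher in AM and 1 lower, with a median log2 difference of 3.52, or 16 higher and 1 lower with library totals alone. Nearest to the rule came PSAK (LOC_Os07g05480), a photosystem I subunit, with 4398 ± 893 CPM in AM and 127 ± 32.8 CPM in PM (SD, n = 3) and a ratio of 23.2. PSAN followed at 19.3. The gene that was lower was FNR1 (LOC_Os06g01850), a leaf ferredoxin-NADP reductase, with a log2 difference of −0.75 (SE 0.22, edgeR adjusted p = 0.0179). It no longer passed when AM replicate 1 was left out (−0.61) or PM replicate 1 was left out (−0.75). Of 12 Calvin cycle genes 11 were higher, 0 were lower and none met the rule, with a median of 1.85. The largest difference in that list was at RCA (LOC_Os11g47970), for Rubisco activase, at 4.47 (SE 0.36).

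Of the 12 other tested chlorophyll synthesis genes 9 were higher in AM and 3 lower, with a median of 2.52. Of the 14 other tested carotenoid and isoprenoid genes 9 were higher and 3 lower, with a median of 1.60. With library totals alone the counts were 7 and 3, and 8 and 5. CAO1 (LOC_Os10g41780), which makes chlorophyll b, had 1118 ± 174 CPM in AM and 29.8 ± 5.75 CPM in PM (SD, n = 3) and a ratio of 25.5. CHLP (LOC_Os02g51080), the geranylgeranyl reductase that supplies the chlorophyll tail, had a ratio of 18.7. CHLG (LOC_Os05g28200), the chlorophyll synthase that joins that tail to the ring, went the other way with a log2 difference of −2.56 (SE 0.24, edgeR adjusted p = 4.06e-05). In the carotenoid list DXS1 (LOC_Os05g33840), the first enzyme of the plastid isoprenoid route, was highest of the genes outside the set at 5.35 (SE 0.35). VDE (LOC_Os04g31040), the violaxanthin de-epoxidase that reverses the step of ZEP, was lower at −0.76 (SE 0.15, edgeR adjusted p = 0.00235).

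Of the 12 clock genes other than LHY, 4 were higher in AM and 6 lower, or 2 and 8 with library totals alone, and the median was −0.71. They ranged from LUX (LOC_Os01g74020), an evening complex factor, at −8.17 (SE 0.52) to PRR73 (LOC_Os03g17570), a pseudo-response regulator, at 4.22 (SE 0.20). Light regulators held no set member, with 8 of 15 genes higher and 4 lower (8 and 6 with library totals alone) and a median of 1.72. Hd1 (LOC_Os06g16370), the rice CONSTANS gene, was lowest at −4.91 (SE 0.36). The CONSTANS-like gene CO3 (LOC_Os09g06464) came closest to the rule of all listed genes, with 103 ± 13.5 CPM in AM, 2.08 ± 0.746 CPM in PM (SD, n = 3) and a ratio of 29.8. PIL13 (LOC_Os03g56950), a phytochrome-interacting factor-like bHLH protein, had a ratio of 23.5, and COL4 (LOC_Os02g39710), another CONSTANS-like gene, 19.4.

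Nitrogen and sulfur genes other than NR2 were higher in AM at 7 of 11 and lower at 2, with a median of 1.74. NIA1 (LOC_Os08g36480), another nitrate reductase gene, had 293 ± 28.2 CPM in AM, 6.39 ± 3.26 CPM in PM (SD, n = 3) and a ratio of 25.9. AMT1;1 (LOC_Os04g43070), an ammonium transporter, had a ratio of 19.5, while ASN1 (LOC_Os03g18130), an asparagine synthetase, was lower in AM at −3.01 (SE 0.19). Starch and sugar genes other than GBSSII were higher at 9 of 18 and lower at 3 (7 and 5 with library totals alone), with a median of 0.80. They ranged from ISA1 (LOC_Os08g40930), a debranching isoamylase, at −5.59 (SE 0.20) to BAM2 (LOC_Os03g04770), a beta-amylase, at 4.20 (SE 0.43). Flowering genes were split with 2 higher and 2 lower of 4 tested (median 1.94), stress genes had 2 higher and 0 lower of 4 (2 and 1 with library totals alone, median 1.58), and neither list held a set member.

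**Figure D4:**
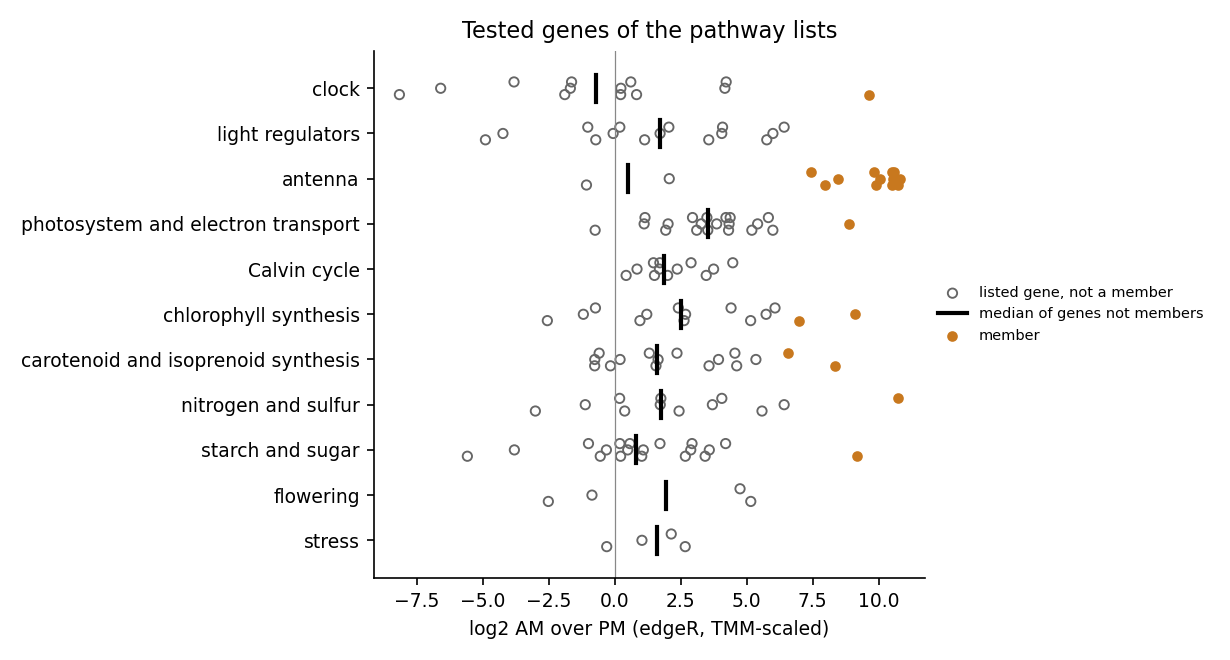
Log2 difference of AM over PM (edgeR, TMM-scaled) for the tested genes of 11 pathway lists, with set members filled and the medians of the other genes as bars. Members lie at the right by the rule that chose them, and among the other genes the photosystem list has the highest median, 3.52.

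Levels varied modestly within AM. The coefficient of variation over the 3 AM libraries had a median of 16.4% in the set and 18.7% over the 6040 loci with a mean AM value of at least 20 CPM. The rule rejects loci whose smallest AM value is low, so the medians are a description and not a comparison. AM values ranged more than 2-fold at 8 loci, and the lowest AM library was within 1.2-fold of the highest at 23. Of the 8, NR2, LHCB1a and LHCB1c were lowest in AM replicate 3, while GBSSII and 4 unnamed loci were highest there. That library thus lay at either end, depending on the locus.

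AM replicate 2 was the highest AM library at 11 of 12 antenna genes, with LHCA3 the exception, and at 27 of the other 73 loci (37.0%). Over all 6040 loci it was the highest at 12.3% and the lowest at 63.3%. AM replicate 2 also had the most counts, 66.7 M, and the largest share of alignments to more than 1 place. The part of these in its antenna values was not tested.

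Traces in PM were not spread evenly over the PM libraries. PM replicate 2, the library with the fewest counts, was the highest PM library at 52 of the 85 loci (61.2%), against 46.2% over the 6040 loci, and PM replicate 3 was the lowest at 54 (63.5%), against 52.2%. Across the 12 antenna genes PM replicate 2 stood at 0.629 to 10.4 times PM replicate 3. It was 0.629 to 1.02 times at LHCA2, LHCB1c and LHCB4 and 2.64 times or more at the other 9, a division made after the values were seen. Those 3 were also the antenna genes with the highest mean PM values, 30.6 to 79.3 CPM, against 7.90 to 13.8 CPM in the other 9.

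Expressed as a share of the mean AM value, the excess of PM replicate 2 over PM replicate 3 was similar at some named genes and not at others. It lay between 0.172% and 0.259% in the 9 antenna genes, which were set apart by this same excess, and was 0.230% at LHY, 0.231% at CHLH, 0.208% at PSAO, 0.259% at GBSSII and 0.218% at NR2. The other 6 named genes departed from this, at −0.483% for LHCA2, −0.0421% for LHCB1c, 0.00924% for LHCB4, −0.00791% for CRD1, −0.310% for BCH2 and 0.922% for ZEP. The NR2 value rests on 4 counts in PM replicate 2 and 2 counts in PM replicate 3. Over all 85 loci the median was 0.225%, with quartiles of 0.0600% and 0.356% and a range of −1.54% to 1.42%. The same quantity for PM replicate 1 over PM replicate 3 had a median of 0.0423%. Whether RNA or reads of AM samples are present in PM replicate 2 was not tested. Across the 85 loci, mean AM values and PM values had Spearman correlations of 0.840, 0.923 and 0.774 for PM replicates 1, 2 and 3. AM and PM values share the locus's length, and the rule caps PM values by the smallest AM value. The correlations are therefore a description only.

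**Figure D5:**
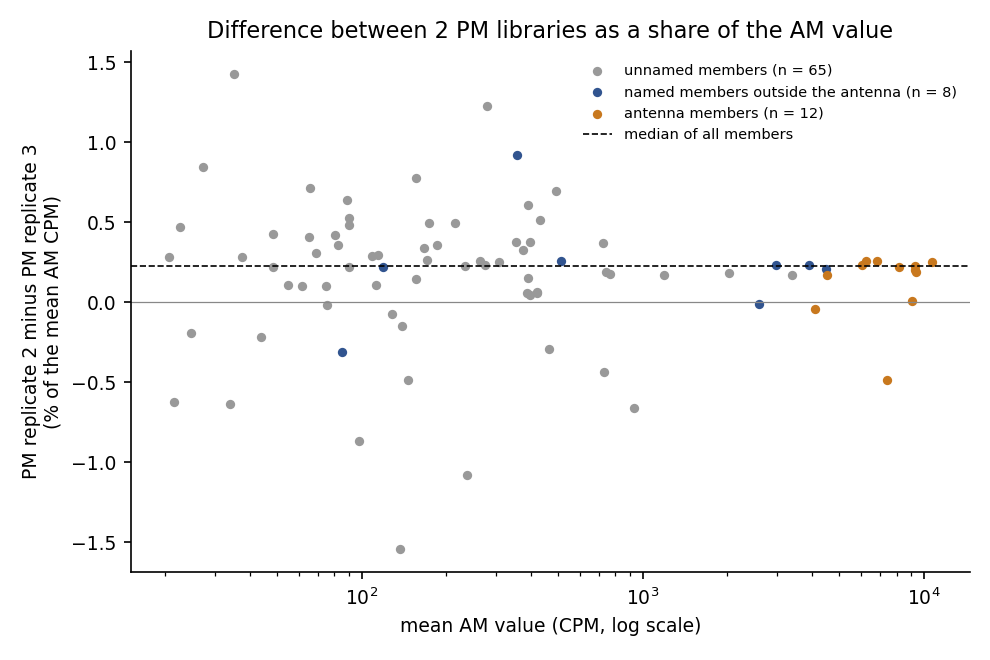
Difference between PM replicates 2 and 3 as a percentage of the mean AM CPM, against the mean AM CPM on a log scale, for the 85 loci. Antenna genes other than LHCA2, LHCB1c and LHCB4 lie in a narrow band near the dashed median of 0.225%, while the 85 loci together range from −1.54% to 1.42%.

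PM replicate 2 sets the size of many of the ratios given above. Without it, the median ratio of smallest AM to largest PM value rose from 86.4 to 138 over the 85 loci and from 278 to 767 over the 12 antenna genes. The fold of means moved by over 1.5 times at 9 of the 20 named genes, 8 of them antenna genes and the other NR2. By the ratio, LHCB2 rose from 289 to 1281, LHCB1b from 336 to 1222 and LHY from 239 to 355. LHCB4, LHCB1c, LHCA2, CRD1, BCH2 and ZEP kept the same ratio, since another PM library held their largest value. Leaving out a PM library cannot raise the largest PM value, so no ratio could fall. For the same reason all 85 loci had to meet the rule without PM replicate 2. In that setting 7 more joined them, for 92 loci, against 87 without PM replicate 1 and 90 without PM replicate 3. Median ratios without PM replicates 1 or 3 are not given here, so the rise is a description of PM replicate 2 alone.

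The same rule with the groups exchanged found 52 loci nearly restricted to the end of the day. They were 0.591% of the 8804 loci with a mean PM value of at least 20 CPM. The end-of-night set was 1.41% of the 6040 loci with such a mean AM value. The 52 loci took 1.47% ± 0.0974 of counts in PM and 0.0100283% ± 0.00283 in AM (SD, n = 3), against the 12.7% and 0.0503% of the end-of-night set. The mean PM value of these loci had a median of 105 CPM, against a mean AM value of 236 CPM in the end-of-night set, and their ratios ran from 32.8 to 452 with a median of 66.9. With TMM-scaled library sizes the end-of-night set grew to 132 and the end-of-day set shrank to 30. TMM factors were 0.779, 0.649 and 0.817 in AM replicates 1, 2 and 3 and 1.38, 1.34 and 1.31 in PM replicates 1, 2 and 3. They raise AM values and lower PM values, so this scaling could only widen the gap between the 2 counts.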

How the data were processed

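RNA of 3 AM and 3 PM rice seedling libraries was sequenced. The authors deposited raw counts per locus. The submitters' processing notes name Trimmomatic 0.33, STAR and HTSeq 0.6.1. Build, annotation, strand setting and STAR version were not given in the sources used here. The 5 summary lines per file stayed out of totals and tests. The share of records outside any feature was 3.53% ± 0.673 for AM and 5.17% ± 0.982 for PM (SD, n = 3); ambiguous records were 0.142% ± 0.0292 for AM and 0.147% ± 0.0145 for PM. Library totals were 13 M to 66.7 M. No pair of replicates matched within sampling noise (chi-square divided by its degrees of freedom was 18.7 to 133).

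CPM were computed on library totals (pandas 2.3.3, Python 3.11.15). AM and PM were compared at 20548 loci with edgeR 4.0.16 (R 4.3.3; filterByExpr with minimum count 10, TMM, glmQLFTest, Benjamini-Hochberg at 0.05); SEs come from the coefficient and its F statistic. On simulated data the fit recovered 98% of 4-fold changes but 26% of 2-fold changes, so a gene not called may still differ 2-fold. Alternatives were RLE factors, library totals, no filter, DESeq2 1.42.0, a replicate block, leaving out each library, and other settings of the rule; thinning, totals without the members, mean folds without PM replicate 2 and list counts without the members were chosen after seeing the data.

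The members and lists were chosen with earlier results of these data known. Every member with a list entry is named, and otherwise at most 2 identifiers with an extreme value, except the adjacent pair; in each list up to 2 other genes with extreme differences are named, and those nearest to the rule were added after seeing the values. Of 168 list entries, 2 were not among the loci and 1 was dropped because RefSeq places its symbol on another chromosome; RefSeq matched 75 of the 165 kept.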

Additional observations from a re-analysis of the deposited data

How the results depend on the processing

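The number of loci meeting the rule moved with its settings. It was 132 with TMM-scaled library sizes, 142 with a ratio of 16 and 53 with a ratio of 64, against 85. It was 64 with an offset of 1 CPM, 97 with a mean AM minimum of 5 CPM, 116 with group means in place of extremes, 84 after thinning all libraries to the smallest and 94 with totals that leave out the members. Leaving out 1 library gave 87 to 92 loci. The ratio of 64 kept 53 of the 85, the offset of 1 CPM kept 64, and 80 were kept under every other setting. Among those, a ratio of 16, the lower AM minimum, group means and leaving out a PM library only loosen the rule. They cannot lose a locus. TMM scaling and totals without the members cannot lose a locus either, since both raise AM values relative to PM values. Leaving out AM replicate 2 kept 84, leaving out AM replicate 3 kept 83 and thinning kept 83. A PM value under 1 CPM in the smallest library rests on few counts, with 3 or fewer at 12 loci, which limits the ratios.

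The count of loci called in the comparison of AM with PM, 11493, ranged from 9668 to 11861 without 1 library and was 11734 with DESeq2. With library totals alone, 2764 loci were higher in AM and 11200 lower. No direction of a named gene changed under any setting run, and the single lost call was FNR1. With a replicate block, 10137 loci were called. Same-numbered AM and PM libraries had correlations of −0.058, −0.273 and 0.102 of their deviations from the group means. Not every library correlated best with its own number. With so few libraries these values cannot decide whether same-numbered libraries were paired, and the labels state no pairing.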
